A study of Mus musculus with 11 samples.

Results

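Cytosolic ribosomal protein genes encode the proteins of the small subunit (Rps genes) and the large subunit (Rpl genes) of the ribosome that translates nuclear messenger RNA. They were chosen by symbol: Rps or Rpl followed by a number, with an optional paralogue suffix and without pseudogenes, which also takes in the stalk genes Rplp0, Rplp1 and Rplp2. The rule found 76 of the 31576 gene symbols named in any of the deposited tables, 30 of the small and 46 of the large subunit. Of these, 58 were named beside an H3K27ac region, 54 of them with a promoter region, 6 beside an H3K27me3 region, and 56 had an ISL1 window of their own. A further 7 protein-coding symbols of the reference that match the rule (Rpl23, Rpl23a, Rpl28, Rpl35a, Rpl39, Rpl7a and Rps2) were not analysed here.

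CUT&Tag, which uses an antibody to bring a DNA-cutting and tagging transposase to a histone mark or factor, was applied to endocrine cells of the mouse pancreas. Control mice carried 1 floxed Isl1 allele (Isl1loxP/+;Neurod1-cre, heterozygous) and Isl1CKO mice carried both (Isl1loxP/loxP;Neurod1-cre). In both genotypes Neurod1-cre acts in Neurod1-expressing cells and also turns on the Ai14 tdTomato reporter, by which the cells were sorted; the mice were littermates of both sexes on a C57BL/6 background. H3K27ac, found at active promoters and enhancers, and H3K27me3, the Polycomb mark of repressed genes, were measured at postnatal day 9 (P9) in 2 Control and 2 Isl1CKO libraries each, every library from cells pooled from 3 to 4 pancreases. ISL1 itself, a LIM-homeodomain transcription factor of endocrine cells, was measured in Control cells only, at E14.5 (2 libraries in 1 deposited column) and at P9 (1 library).

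Ribosomal proteins are needed in near-equal amounts, and their genes are among the most highly transcribed housekeeping genes of most cells, including hormone-secreting cells. Most have a short promoter without a TATA box and begin transcription at a C inside a run of pyrimidines. This run becomes the 5' terminal oligopyrimidine (TOP) tract of the messenger RNA, through which mTOR and the RNA-binding protein LARP1 control translation.

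The H3K27ac libraries held 681047 to 1815511 counts in regions, with the fewest in Isl1CKO replicate 1, and the H3K27me3 libraries 1202276 to 2276887. Control replicate 2 stood apart from the other H3K27ac libraries, with a correlation of log CPM across regions of 0.47 to 0.52 against 0.70 to 0.74 among the other 3. Promoter H3K27ac regions were listed for 9 of 12 endocrine marker genes, including Chga, Neurod1 and Ins1 but not Ins2, Gcg or Sst. They were listed for 1 of 7 acinar and 2 of 5 ductal markers and for 0 of the endothelial, mesenchymal, immune and glial markers. The summed CPM of the endocrine markers was 932 and 749 in Control and 844 and 839 in Isl1CKO, that of the acinar marker (Bhlha15) 86.5 and 52.6 against 70.0 and 112, and that of the ductal markers 26.2 and 54.8 against 15.2 and 22.5. The part of cell makeup in the results that follow was not tested.

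Promoter sequences were available from RefSeq (GRCm38.p6) for 57 of the 76 genes. The sequences shown were chosen because they show the pyrimidine run at the start of transcription, in genes of both subunits with high or low H3K27ac or with a difference between the genotypes, beside paralogues and 3 genes in which the run is short. Each covers 40 bases before and 20 bases from the annotated start, 5′ to 3′ on the gene's strand, with the longest run of C and T that touches the stretch from 5 bases before to 10 after the start in capitals.
Rps6, chr4:86857348-86857407, minus strand: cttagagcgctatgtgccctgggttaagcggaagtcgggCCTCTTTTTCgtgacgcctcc
Rps27, chr3:90213629-90213688, minus strand: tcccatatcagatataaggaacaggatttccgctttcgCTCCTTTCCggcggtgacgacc
Rps15a, chr7:118116128-118116187, minus strand: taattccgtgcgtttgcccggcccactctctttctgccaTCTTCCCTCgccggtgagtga
Rpl15, chr14:18270967-18271026, minus strand: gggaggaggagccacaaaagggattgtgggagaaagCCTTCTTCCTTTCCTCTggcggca
Rpl38, chr11:114668540-114668599, plus strand: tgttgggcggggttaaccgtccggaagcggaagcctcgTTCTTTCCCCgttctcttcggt
Rpl31, chr1:39367811-39367870, plus strand: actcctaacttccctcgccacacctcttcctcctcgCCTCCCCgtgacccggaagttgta
Rpl34, chr3:130730379-130730438, minus strand: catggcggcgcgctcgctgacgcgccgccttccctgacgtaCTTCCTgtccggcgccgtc
Rpl22l1, chr3:28805468-28805527, plus strand: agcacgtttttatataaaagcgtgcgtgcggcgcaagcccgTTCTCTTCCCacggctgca
Rps27l, chr9:66946046-66946105, plus strand: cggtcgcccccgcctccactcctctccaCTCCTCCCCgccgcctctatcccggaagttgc
Rpl3l, chr17:24727786-24727845, plus strand: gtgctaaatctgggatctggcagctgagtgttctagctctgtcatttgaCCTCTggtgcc
Rpl37, chr15:5116573-5116632, plus strand: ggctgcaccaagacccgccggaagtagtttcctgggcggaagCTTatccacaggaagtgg
Rps19, chr7:24884552-24884611, plus strand: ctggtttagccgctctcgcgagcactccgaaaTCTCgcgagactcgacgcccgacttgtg

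The run was 17 bases long in Rpl15, 10 in Rps6, Rpl38 and Rpl22l1, 9 in Rps27, Rps15a and Rps27l, 5 in the muscle paralogue Rpl3l, and 3 in Rpl37. A run of at least 8 bases was present in 21 of the 57 genes (36.8%), against 11.1% of all 27025 genes with a promoter sequence and 11.6% of the 8281 that also had an H3K27ac promoter region. A C followed by at least 5 bases that were C or T, between 10 bases before and 16 after the start, was found in 28 of 57 (49.1%, against 19.2% and 20.0%). The annotated start is often some bases from the true one, so these shares depend on the annotation. The sequence CCGGAAG, the core bound by ETS factors such as GABPA and seen in the Rpl31, Rpl38, Rpl37 and Rps27l sequences, was found on either strand of the 300 bases around the start in 22 of 57 genes (38.6%), against 9.12% of all genes and 16.5% of those with an H3K27ac promoter region. GGGCGG, an SP/KLF core, was present in 57.9% (35.9% and 65.1%), and TATAAA in 8.77% (14.2% and 6.52%). TAAT, the 4-base core that homeodomain factors such as ISL1 recognise, was present in 49.1% (58.3% and 40.6%), which lies between the shares of the compared sets; TAATTA, which contains it, was present in 3.51% (5.31% and 2.16%). These matches describe the sequences only.

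The level of H3K27ac in Control cells was described first, per kilobase of region so that genes can be compared. CPM here are TMM-scaled counts relative to all counts in the regions that passed the filter on low counts. Where a gene had several promoter regions the one with the most counts was taken. The 54 genes had a median Control level of 33.1 CPM per kb, against 28.1 for all 12573 genes with a promoter region. The median gene lay at the 64.2 percentile of all genes, at 61.1 by Control replicate 1 alone and 52.5 by replicate 2 alone. By the mean of both libraries 35 of the 54 lay above the median of all genes. Ribosomal protein promoters thus carried H3K27ac at levels spread over most of the range, with a shift upward that was smaller in 1 Control library than in the other. The shift was not particular to them: 55 mitochondrial ribosomal protein genes had a median of 32.1 CPM per kb, at the 61.6 percentile.

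**Figure D1:**
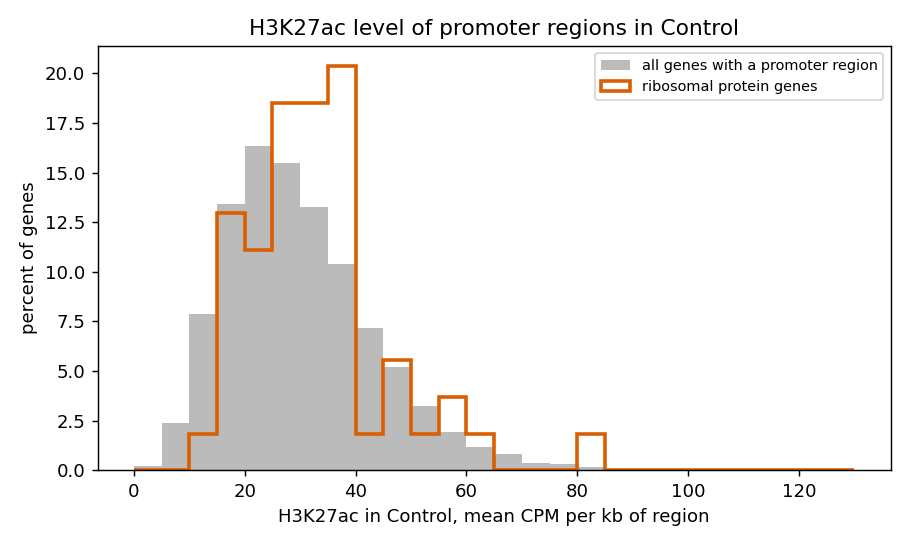
Share of genes (percent, y axis) by mean H3K27ac level in the 2 Control libraries (CPM per kb of promoter region, x axis), for the 54 ribosomal protein genes (orange outline) and all 12573 genes with a promoter region (grey). The ribosomal protein genes run from 12.6 to 83.8 CPM per kb around a median of 33.1, against 28.1 for all genes.

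Rpl15, a large subunit protein, had the highest level, 83.3 and 84.2 CPM per kb in the 2 Control libraries, at the 99.8 percentile of all genes. Rpl19, also of the large subunit, measured 67.2 and 57.6, and Rpl11, which with Rpl5 binds the 5S ribosomal RNA and can bind the p53 regulator MDM2, measured 56.8 and 57.95. Rpl21 measured 69.3 and 41.2, a difference between replicates larger than that between the gene and its neighbours in the order. At the low end, Rpl41, which encodes a very short basic peptide, measured 16.4 and 8.86 CPM per kb. Rpl31 measured 20.3 and 10.1, Rpl10, a protein that joins the large subunit late in its assembly, 13.5 and 18.7, and Rpl24 20.4 and 12.6. The 4 lowest genes overlapped one another over the 2 libraries and all lay below the 4 highest in both. Both sets were chosen by the mean of these same libraries, which largely fixes that separation. By subunit, the 19 small subunit genes had a median of 28.8 CPM per kb and reached 49.3 (Rps27l), the 32 large subunit genes without the stalk a median of 33.1, and the 3 stalk genes one of 37.9.

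The H3K27ac regions of these genes had a median width of 1480 bp, against 1288 bp for all genes, and from 464 (Rps4x) to 8704 bp (Rps14). The annotated start lay inside the region for 49 of 54 genes (90.7%, against 77.6% of all genes). Around the start the region reached a median of 408 bp upstream and 1064 bp downstream, against 466 and 855 bp for all genes. The mark thus lay mostly over the first part of the transcribed gene, as it did at promoters in general. In 24 of 54 genes (44.4%, against 38.7%) the table listed more than 1 flanking gene for the promoter region, and its counts cannot be assigned to 1 of them.

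The main comparison asked whether H3K27ac at these promoters differed between Isl1CKO and Control cells. None of the 54 genes passed the edgeR quasi-likelihood test (adjusted p under 0.05), and neither did any other region, so that the background called was 0.0% of 30036 regions. At an unadjusted p under 0.05, edgeR gave 1751 regions, 1 of them the promoter of a ribosomal protein gene (Rpl31), and the smallest adjusted p of all regions was 0.734. DESeq2 called 27 regions and 0 of the 54. What follows are therefore values and their spread, not calls.

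The 54 genes had a median log2 fold change (Isl1CKO over Control) of 0.20. It was positive for 40 and negative for 14 (74.1% positive, against 54.8% of all 12378 promoters tested, whose median was 0.07). The median was 0.22 for small subunit genes (14 of 19 positive), 0.20 for large subunit genes (24 of 32) and 0.14 for the stalk (2 of 3), and for 55 mitochondrial ribosomal protein genes it was 0.11 (32 positive). With library totals in place of TMM the medians were 0.13 for the 54 genes and 0.02 for all promoters, with DESeq2 0.18 and 0.06, and with a loess correction 0.080 and -0.0011. With every promoter region of these genes taken in place of 1 each, 41 of the 62 tested were positive (median 0.14). Both Isl1CKO libraries lay above both Control libraries at 13 genes (24.1%), against a background of 20.8% of all promoters, and below both at 5 (9.26%), against 16.3%. The share above is near the background.

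The small positive median came with differences between replicates of the same size. The summed CPM of the 54 promoters was 3330 and 2802 in Control and 3864 and 3096 in Isl1CKO, so the groups overlapped. Isl1CKO replicate 1, the shallowest library, was the highest of the 4 at 31 of the 54 genes (57.4%, against 27.2% of all promoters), and Control replicate 2 was the lowest at 27 of 54 (against 38.9%). Between single libraries, on log2 of CPM plus 1, the median ratio was 0.22 for Isl1CKO replicate 1 over Control replicate 1 (41 of 54 genes higher) and 0.51 over Control replicate 2 (43 higher). For Isl1CKO replicate 2 the same ratios were -0.08 (20 higher) and 0.11 (34 higher). The 2 Isl1CKO libraries differed from each other by -0.29 and the 2 Control libraries by -0.41 (replicate 2 over replicate 1), each larger than the difference between the genotypes. The fitted median of the 54 genes was -0.0076 with Isl1CKO replicate 1 left out (26 positive) and 0.40 with Isl1CKO replicate 2 left out (42 positive). With Control replicate 1 left out it was 0.37 (40 positive), and with Control replicate 2 left out it was 0.071 (30 positive). The direction of the group thus rested on Isl1CKO replicate 1, and its size also on Control replicate 2. The part of the low depth of Isl1CKO replicate 1 was not tested.

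**Figure D2:**
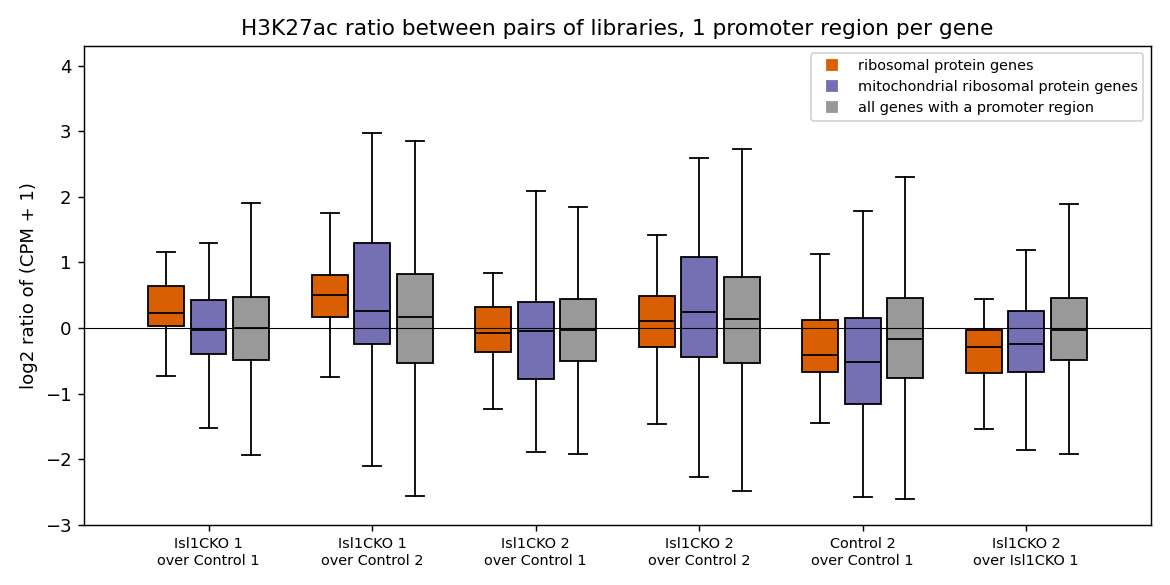
Log2 ratio of H3K27ac (CPM plus 1, y axis) between pairs of libraries (x axis) at promoter regions of 54 ribosomal protein genes (orange), 55 mitochondrial ribosomal protein genes (purple) and all 12573 genes with a promoter region (grey); boxes span the quartiles with the median as a line, and whiskers reach the farthest value within 1.5 box lengths. The orange medians are 0.22 and 0.51 for Isl1CKO 1 over the Control libraries, -0.08 and 0.11 for Isl1CKO 2, and -0.41 and -0.29 between replicates.

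Of the genes in which both Isl1CKO libraries were above both Control libraries, Rpl31 differed most. The promoter of Rpl31 (ENSMUSG00000073702), a large subunit protein near the exit of the peptide tunnel, spans chr1:39406647-39408547 on GRCm39 and measured 38.6 and 19.2 CPM in the Control libraries against 66.9 and 69.6 in Isl1CKO. Its log2 fold change was 1.25 (SE 0.52, edgeR adjusted p 0.850), from 0.82 to 1.83 with 1 library left out. The Isl1CKO libraries were close together and above the higher Control library, and the Control libraries differed about as much from each other as the groups did. Rpl34, another large subunit protein, measured 37.8 and 34.5 in Control and 76.1 and 62.5 in Isl1CKO, a log2 fold change of 0.93 (SE 0.46, edgeR adjusted p 0.865). At this region each group was tight and the 2 did not come near each other. Another Rpl34 promoter region held fewer counts and was lower in Isl1CKO, with 14 and 30 raw counts in Control against 3 and 8 (-1.39). Rps19, a small subunit protein whose gene is often mutated in Diamond-Blackfan anaemia, measured 40.9 and 27.4 against 57.8 and 58.3 CPM (0.77, SE 0.50). Its other promoter region was also lower in Isl1CKO, with 19 and 46 raw counts in Control against 2 and 20 (-1.14).

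Rpl10a, a protein of the L1 stalk, and Rps13 followed with smaller differences that depended on Control replicate 2. Rpl10a measured 137 and 52.1 CPM in Control and 152.1 and 141 in Isl1CKO (0.64, SE 0.40), so that 1 Control library was near both Isl1CKO libraries. Its log2 fold change was 0.086 with Control replicate 2 left out and 1.49 with replicate 1 left out, where it was the only one of the 54 genes called (edgeR adjusted p 0.0248) among 900 regions called in that fit. Rps13 measured 54.03 and 32.9 against 63.9 and 69.6 CPM (0.63, SE 0.47). Others of this kind were Rpl4, Rpl12, Rpl35, Rpl37, Rplp0, Rps21 and Rps23, with log2 fold changes from 0.27 to 0.58.

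In 5 genes both Isl1CKO libraries were below both Control libraries. Rps12, a small subunit protein, measured 39.4 and 27.4 CPM in Control and 15.2 and 21.1 in Isl1CKO, a log2 fold change of -0.85 (SE 0.65, edgeR adjusted p 0.912). Rps15a, which lies in the small subunit, measured 69.5 and 46.0 against 31.9 and 35.1 (-0.77, SE 0.51), and Rpl9, of the large subunit, 88.8 and 72.3 against 69.99 and 40.1 (-0.57, SE 0.43). In Rps12 the raw counts were 51 and 50 in Control and 10 and 30 in Isl1CKO, so the shallow library gave few counts. Rpl5 (41.7 and 43.8 against 38.0 and 35.1 CPM, -0.23) and Rpl15, the gene with the highest level, were lower by little: Rpl15 measured 126 and 127 against 116 and 126 CPM (-0.07, SE 0.32).

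**Figure D3:**
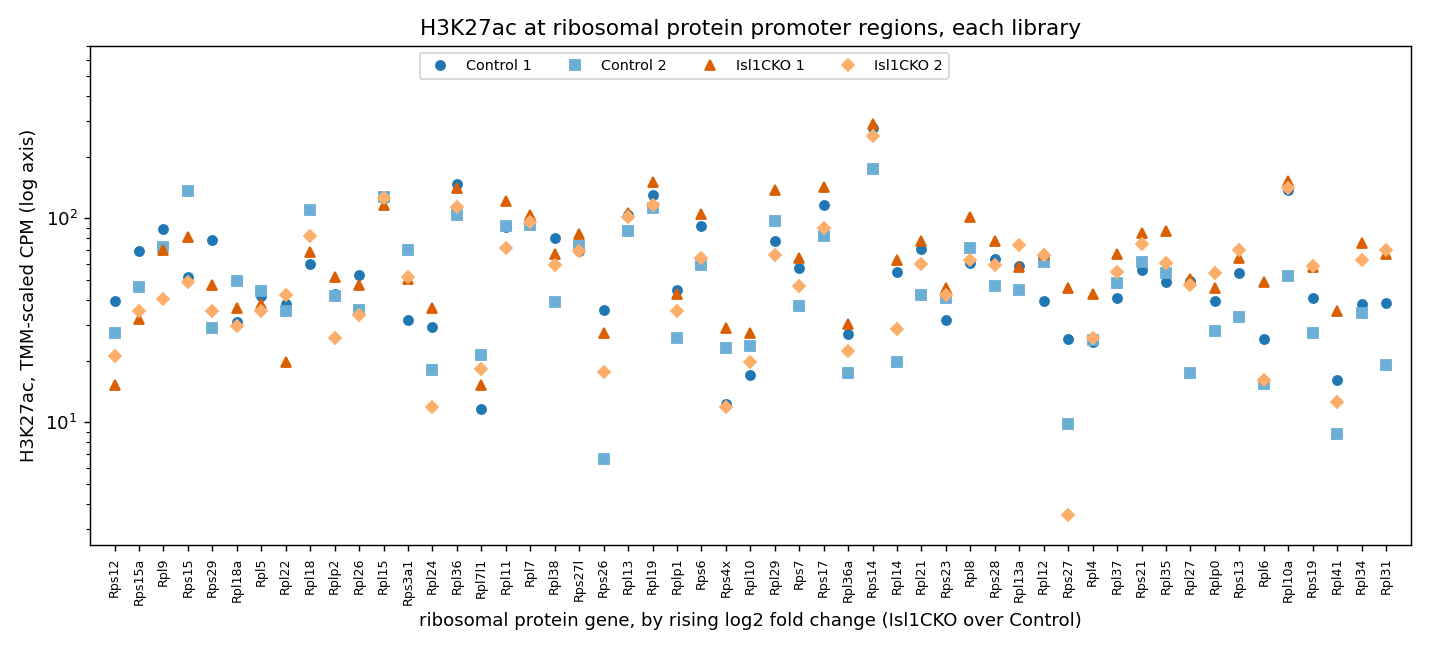
H3K27ac (TMM-scaled CPM, log y axis) in each library at the promoter regions of 53 of the 54 ribosomal protein genes (x axis; 1 is not shown), ordered by log2 fold change; each point is 1 library, Control in blue and Isl1CKO in orange. The 4 libraries lie within the same range for most genes, from Rps12 (-0.85) on the left to Rpl31 (1.25) on the right, and Isl1CKO 1 is the highest point at 31 genes.

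Some of these genes are often used to read the translation machinery. Rps6, the small subunit protein phosphorylated by S6 kinase, measured 91.9 and 59.2 CPM in Control and 105 and 63.95 in Isl1CKO (0.15, SE 0.41). Rplp0, the base of the stalk to which Rplp1 and Rplp2 bind and a common reference gene, measured 39.4 and 27.95 against 45.6 and 54.1 (0.58, SE 0.52). Rplp1 measured 44.8 and 25.8 against 42.6 and 35.1 CPM (0.14, SE 0.56). For Rps6 and Rplp1 the libraries of the groups overlapped, and for Rplp0 they did not. Rpl29 measured 77.2 and 97.0 against 138 and 66.1 CPM (0.21, SE 0.40), with the Isl1CKO libraries on either side of the Control libraries. Rps6, Rpl29, Rpl19, Rpl11 and Rpl21 took the opposite sign when 1 library was left out, as did 15 of the 30 named genes with an H3K27ac promoter region.

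Several ribosomal protein genes have a paralogue that is used in a tissue or in stress. Rps27 measured 25.5 and 9.87 CPM in Control and 45.6 and 3.51 in Isl1CKO (0.42, SE 0.95), the widest spread within a genotype among the paralogue pairs, from 33, 18, 30 and 5 raw counts. Its p53-induced paralogue Rps27l measured 69.5 and 73.4 against 83.7 and 68.9 (0.09, SE 0.39), and per kilobase in Control it lay above Rps27, 47.9 and 50.7 against 36.7 and 14.2 CPM per kb. Rpl7 measured 36.2 and 35.0 CPM per kb in Control and Rpl7l1, its paralogue, 12.6 and 23.2, again without overlap. For Rpl22 the Control level was 34.3 and 31.8 CPM per kb. Rpl22l1, its paralogue, had no region named for it, but its start lay in an H3K27ac region named for Gm32950 with 23.5 CPM per kb. The testis paralogues Rpl10l and Rpl39l and the muscle paralogue Rpl3l had no H3K27ac region named for them.

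Some genes were missing from the count because the region at their start was named for a neighbour, often a small RNA or a predicted gene. The starts of 10 more genes (Rpl22l1, Rpl27a, Rpl30, Rpl32, Rps16, Rps18, Rps20 and Rps27a among them) lay in such promoter regions, which had a median of 37.4 CPM per kb in Control. Their median log2 fold change was 0.18, with 6 positive and 4 negative. Rps18 had the largest, 0.72 (SE 0.52), in a region it shares with Vps52, and Rpl32 the lowest, -0.42 (SE 0.54), in a region named for Snora7a. With them the median over 64 genes was 0.19, with 46 positive.

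Outside promoters, the H3K27ac regions named for these genes numbered 34, and 22 of the 31 tested had a negative log2 fold change (median -0.11, against -0.14 for all regions outside promoters). The distal region of Rpl29 (chr9:106287465-106288731, -17922 bp from its start) held 36 and 71 raw counts in the Control libraries against 0 and 3 in those of Isl1CKO; the ratio of sums was 0.042, with an exact 95% counting interval of 0.00854 to 0.126 and an edgeR adjusted p of 0.838. Counting intervals cover counting error only. This was the lowest unadjusted p of the non-promoter regions named for these genes, and the authors' deposited table had -4.12 for it. At that distance the region cannot be assigned to Rpl29. At the main Rpl29 promoter region the groups overlapped. The other distal regions named for Rpl29 had log2 fold changes of -0.54 and -0.07, and its other promoter region had -0.71. A region at -13784 bp from the start of Rplp0 was annotated as 5' UTR though it lay that far upstream, so it cannot be assigned to Rplp0. It measured 104 ± 33.1 CPM in Control against 168 ± 24.7 in Isl1CKO (SD, n = 2), and its log2 fold change was 0.70 with an SE of 0.33.

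The authors' deposited table gave larger values for the same counts. In the authors' deposited table the median log2 fold change of the 54 promoters was 0.80, with 52 of 54 positive. At their adjusted p under 0.05, 24 were called higher (44.4%, against 34.7% of all promoters and 27.8% of all regions). Called lower were 0 of the 54, against 573 of all 12573 promoters and 9.25% of all regions. The median over all H3K27ac regions was 0.46 in the authors' deposited table and -0.03 in the TMM-scaled fit, and over all promoters 0.61 and 0.07. Values were thus higher there in general, but not by 1 fixed amount: Rps12 had -0.40 against -0.85 and Rps15 0.17 against -0.56. The authors' adjusted p stands beside a likelihood ratio, so their test also differed from the quasi-likelihood test. Rpl31 and Rpl34 led the called promoters in the authors' deposited table too, at 1.81 and 1.55.

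Other genes of ribosome production and translation were read from the same fit, and 0 of them passed the edgeR test. The 3 measured ribosomal proteins that the symbol rule does not take in had a median log2 fold change of 0.69, 3 of 3 positive; Rpsa, a small subunit protein, rested on few counts, 18 and 3 in Control and 26 and 32 in Isl1CKO. The 10 measured translation factors with TOP messenger RNAs (elongation factors, eIF3 subunits and Pabpc1 among them) had a median of -0.03, 5 positive and 5 negative. The 17 genes of ribosome assembly and ribosomal RNA synthesis had a median of 0.17, with 10 positive and 7 negative. Among these, Taf1d, a subunit of the RNA polymerase I factor SL1, measured 69.4 ± 9.66 CPM in Control against 21.9 ± 12.1 in Isl1CKO (SD, n = 2; log2 fold change -1.72, SE 0.56, edgeR adjusted p 0.846), and Ncl, nucleolin, 85.7 ± 43.7 and 182 ± 48.4 (1.08, SE 0.38, edgeR adjusted p 0.846). The 9 regulators had a median of 0.06; Rps6kb1, the S6 kinase, measured 46.0 ± 36.4 and 117 ± 4.49 (1.36, SE 0.49, edgeR adjusted p 0.846).

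H3K27me3 was rare beside these genes. It was listed for 6 of the 76, against 8085 of all 31576 gene symbols. These genes had 13 of the 20086 regions. Mitochondrial ribosomal protein genes were similar, with 5 genes and 10 regions listed. At Rpl17, Rpl26, Rpl38 and Rpl3l regions were annotated as promoter, and at Rps15a and Rplp1 they were distal. In 1 gene, Rpl3l, the region covered the start. The promoters of Rpl26 and Rpl38 that carried H3K27ac had their H3K27me3 upstream of the start, at -1200 bp or farther.

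Rpl3l (ENSMUSG00000002500), the paralogue that replaces Rpl3 in heart and skeletal muscle, measured 12.3 and 6.46 CPM of H3K27me3 in the Control libraries against 19.7 and 14.9 in Isl1CKO, at its start (chr17:24946727-24947892, GRCm39), a log2 fold change of 0.89 (SE 0.93). Both Isl1CKO libraries lay above both Control libraries, as in 11.1% of all H3K27me3 promoters tested. It had no H3K27ac region of its own, and its promoter sequence shows a run of 5 pyrimidines only. Rpl26 measured 6.17 and 28.8 against 11.1 and 8.50 CPM (-0.85, SE 0.99) and Rpl38, a protein known for its part in the translation of Hox messenger RNAs, 11.5 and 8.81 against 1.28 and 10.6 (log2 fold change -0.76). In both, 1 library stood far from the other of its genotype. The edgeR test called 0 of these regions, with a background of 0.0% of 19434 regions and 843 at an unadjusted p under 0.05; DESeq2 called 142 regions and 0 of these. With 1 region per gene the median over the 6 genes was 0.20, and in the authors' deposited table it was -0.31 with 3 of the 6 called. These were Rpl26 (-1.35) and Rpl38 (-1.23), lower, and a Rps15a region 89773 bp from the start (2.39), higher. The other Rps15a region, at 110012 bp, was called lower there (-2.03), and 1 more distal Rplp1 region higher (1.74). These distal calls rested on few raw counts. The Rps15a region at 89773 bp held 5 and 0 in Control and 27 and 37 in Isl1CKO. Its log2 fold change in the fit was 2.68, from 1.62 to 7.87 with 1 library left out. The Rps15a region at 110012 bp held 15 and 28 against 24 and 0, and the Rplp1 region 6 and 0 against 22 and 27. A Rpl26 region nearer the start was not called there (0.34) and had a log2 fold change of 0.88 in the fit. Of all regions there, 29.6% were called lower and 9.17% higher. Over all 13 regions of these genes, of which 12 were tested, the median was 0.79 in the fit and 0.34 in the authors' deposited table. The sign in the authors' deposited table thus depended on which regions were taken. In the fit 9 of the 12 were positive, against 10194 of all 19434 regions tested. Both Isl1CKO libraries lay above both Control libraries in 5 of the 12, against 3629 of the 19434. Medians over all H3K27me3 regions of the table were 0.05 in the fit and -0.45 in the authors' deposited table.

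ISL1 in Control cells was given as whole numbers per promoter window, here called ISL1 values because the table does not state their unit; most windows span 6000 bp. At E14.5 the value was at least 1 in 38 of the 56 ribosomal protein windows (67.9%), against 37.7% of all 22332 windows and 61.9% of the 8613 windows of genes with an H3K27ac promoter region. At P9 it was at least 1 in 6 windows (10.7%, against 8.86% and 11.1%). The values were low: at E14.5, 18 windows had 0, 15 had 1, 13 had 2, 6 had 3, 2 had 4 and 2 had 5 or more. Among genes with an H3K27ac promoter region, 24 of 37 ribosomal protein windows (64.9%) had a value of at least 1 at E14.5, near the 61.9% of that set. A value of at least 2 was reached by 41.1% of the 56 windows, against 18.3% of all and 32.6% of the set with H3K27ac. For 57 mitochondrial ribosomal protein windows it was 57.9% at E14.5 and 3.51% at P9. The 2 stages differ in the number of libraries behind the column, no depth was given for either, and no test was made between them.

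**Figure D4:**
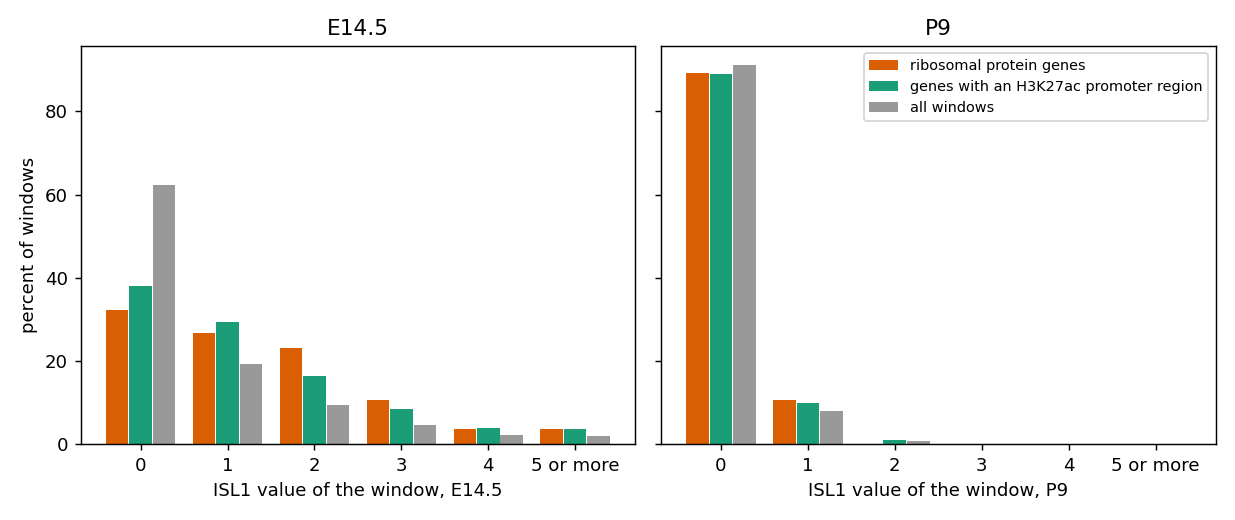
Share of promoter windows (percent, y axis) by ISL1 value (x axis) in Control cells at E14.5 (left) and P9 (right), for 56 ribosomal protein windows (orange), 8613 windows of genes with an H3K27ac promoter region (green) and all 22332 windows (grey). At E14.5, 18 of the 56 orange windows are at 0, and the orange shares follow the green ones more closely than the grey ones; at P9, 6 of 56 have a value of 1.

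Among the genes with high E14.5 values, Rpl21 had 5, Rpl37 and Rps19 had 4, and Rpl31, Rps3a1, Rps6, Rps27l and Rps29 had 3. Among all windows, 460 (2.06%) had 5 or more at E14.5, against 2 of the 56, and 0.0851% had 10 or more, against 0 of the 56. At P9, 0.0358% had 5 or more and 0.0% had 10 or more, each against 0 of the 56. The 6 windows positive at P9, those of Rpl10, Rpl19, Rps6 and Rps7 among them, each had a value of 1. Both stages were positive in 4 windows, among them Rpl19 and Rps6, and 4.67% of all windows were positive at both. The 12 windows wider than 6000 bp held 3 of the 6 positive at P9, and wider windows were more often positive over all genes too (12.6% against 8.33% at P9, 60.8% against 34.5% at E14.5). Another 19 genes of the rule had no window of their own and were listed only as flanking genes of windows named for neighbours.

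The H3K27ac values were also set beside the ISL1 values, as a description with no test. The median log2 fold change was 0.09 for the 13 genes with an E14.5 value of 0, 0.21 for the 15 with 1 or 2, and 0.27 for the 9 with 3 or more. The median Control level of the same genes was 27.4, 33.1 and 37.6 CPM per kb, so it was higher in the groups with higher ISL1 values. Rpl34 and Rps12, with fold changes at opposite ends, both had a value of 0. The 5 genes positive at P9 that had an H3K27ac promoter region had a median of 0.20, and the 32 others one of 0.15. By sequence, the 20 genes with a C and at least 5 further pyrimidines near the start had a median log2 fold change of 0.27 and a Control level of 30.9 CPM per kb, against 0.16 and 31.8 for 23 genes without it. The 17 with CCGGAAG had 0.13 and 34.9, against 0.26 and 29.1 for 26 without. These differences between groups of genes were not tested.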

How the data were processed

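Per the submitters' processing notes, the genome build was GRCm39 and the tools were edgeR 4.0.16, ChIPseeker 1.38.0, MACS2 2.2.6, Picard 2.27.4 and Bowtie2 2.3.5.1. The authors deposited raw counts per region and library for both marks, with their own log2 fold change and adjusted p-value. The deposited ISL1 values are treated as a score, since no unit is stated. Chromosome labels of the histone files followed alphabetical order and matched the ISL1 file for 7.48% (H3K27ac) and 9.25% (H3K27me3) of regions; after relabelling 100% matched. Counts were filtered with filterByExpr, scaled with TMM and tested with the edgeR 4.0.16 quasi-likelihood test in R 4.3.3 (2 against 2 libraries), with Benjamini-Hochberg adjustment over all regions of a mark; DESeq2 1.42.0 was an alternative. The test was run on simulated data first. The SE given with a log2 fold change was derived from the test, as its absolute value divided by the square root of the quasi-likelihood F. A count of 0 allows up to 1.64 to 4.56 CPM of H3K27ac and 1.28 to 2.64 of H3K27me3 (3 counts, counting error only). The authors' log2 mean CPM, likelihood ratio and unadjusted p-value columns were not used, and all other value columns were. Named genes were the 4 highest and 4 lowest in Control, the 5 at each end among genes whose groups did not overlap (at least 20 counts), the 5 with the highest ISL1 value per stage, those with H3K27me3, paralogue pairs, Rps6, Rplp0 and Rpl29; other genes named were chosen after their values were seen. The members and lists were chosen with earlier results of these data known. Libraries were pools described as independent replicates. Results of some genes that this rule selects are not reported here.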

Additional observations from a re-analysis of the deposited data

How the results depend on the processing

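The number of the 54 promoters called for H3K27ac was 0 in the TMM-scaled fit and 24 in the authors' deposited table, whose median was 0.80. With 1 library left out it was 0 to 1, the median log2 fold change ranged from -0.0076 to 0.40, the number of positive genes from 26 to 42, and the median percentile of the Control level from 52.5 to 61.1. Over all H3K27ac regions, edgeR called 900 (673 of them higher) with Control replicate 1 left out, 15 (10 of them higher) with Control replicate 2 left out and 0 in each of the other 2 cases, and DESeq2 called 27 (19 higher). For H3K27me3 DESeq2 called 142 (4 higher). The H3K27me3 median over 6 genes ranged from 0.20 to 0.36 with 1 library left out; in the authors' deposited table it was -0.31, with 2 positive and 3 called. With all regions of these genes in place of 1 each it was 0.79 with 9 positive in the fit, and 0.34 in the authors' deposited table. ISL1 values of at least 5 and 10 were present in 2 and 0 windows at E14.5 and in 0 and 0 at P9. With the replicate block the H3K27ac and H3K27me3 medians were 0.19 and 0.19; same-numbered libraries did not deviate together (r = 0.049 and -0.014), so the numbers were not taken as pairs. The block called 0 regions of either mark.

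Of the 30 named genes with H3K27ac, 14 kept their sign in all settings; for the 10 chosen as not overlapping between groups, that choice largely fixes the sign when a library is left out. With the loess correction the log2 fold change was -0.12 for Rpl7, -0.071 for Rpl19, -0.033 for Rpl38, -0.013 for Rps6, -0.13 for Rpl11, -0.093 for Rps27l and -0.010 for Rpl29. It was 0.011 for Rpl24 without a filter, -0.041 for Rpl7l1 with library totals and -0.17 for Rps27 with the replicate block. With 1 library left out it ranged from -0.047 to 0.44 for Rpl10, -0.35 to 0.41 for Rpl11, -0.062 to 0.31 for Rpl19, -0.070 to 0.69 for Rpl21, -0.89 to 0.21 for Rpl22, -0.98 to 0.62 for Rpl24, -0.40 to 0.16 for Rpl26, -0.40 to 0.66 for Rpl29, -0.36 to 0.69 for Rpl38, -0.34 to 0.53 for Rpl7l1, -0.22 to 0.58 for Rplp1, -2.30 to 1.37 for Rps27, -0.054 to 0.22 for Rps27l, -0.57 to 0.69 for Rps4x and -0.24 to 0.49 for Rps6. For H3K27me3 it ranged from -0.039 to 0.39 for Rpl17, -1.55 to 0.66 for Rpl26, -2.91 to 0.066 for Rpl38 and -0.014 to 0.45 for Rplp1. Leaving out a library leaves 1 in its group, which is then assumed to vary like the other. The regions named for another gene, all H3K27me3 regions of a gene and the authors' values were added after seeing the data. The H3K27ac median of 0.20 over the 54 genes was smaller than its SD of 0.25 over the 4 pairs of Isl1CKO and Control libraries, which limits what 2 libraries per genotype can show.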
